A study of Mus musculus with 24 samples.

Results

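The inner cell mass (ICM) of mouse blastocysts was represented by 2 arrays of the 24 in the series, chosen as the arrays whose source names give ICM, and was set against the 3 arrays of undifferentiated ES cells (day 0, D0) that carried the same dyes. Each array co-hybridised cDNA from female and from male cells to a slide printed with the NIA 15K library of mouse cDNA clones, and each value is the female:male ratio of a clone on the log2 scale (M value). The ICM arrays are replicates X and Y, and the D0 arrays are replicates B, C and D. The female sample was in Cy5 and the male sample in Cy3 on all 5. An effect of the dyes on a clone is therefore not separated from sex within either group.

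For the ICM arrays, frozen Balb/c embryos were cultured to the blastocyst stage, which the sample labels call expanded and the study's methods call early. The outer trophectoderm was lysed by immunosurgery, and the embryos were sexed by PCR for Sry in that outer material. RNA from a single ICM was then amplified in 2 rounds before labelling. The study describes the female ICM values as biological and the male ICM values as technical replicates, so X and Y share a male source, and a ratio that they have in common can come from that source alone. The D0 arrays compared unamplified RNA of cells kept before the withdrawal of LIF, from the female line PGK12.1, a hybrid of different mouse strains, and the male line CCE/R. The labels list these lines, and a further female line, without saying which is on which array, so the assignment to PGK12.1 rests on the number of day 0 replicates in the study. Sex and cell line therefore differ together at D0, whereas female and male ICMs came from the same strain. Embryo against culture, strain, amplification and the amount of starting RNA also differ together between ICM and D0, and their parts in the values given here cannot be told apart.

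The ICM is the group of pluripotent cells inside the blastocyst from which the embryo proper forms, and ES cells are lines grown out from it. In female mouse embryos the paternal X is silenced early and becomes active again in the pluripotent cells of the ICM, and undifferentiated female ES cells keep both X chromosomes active until they differentiate. A female:male comparison in the ICM sets the sexes against each other in the embryo, as the ES cell arrays do in culture. The state of the X may differ between them. The study found similar X-linked expression, relative to autosomes, in its female and male ICMs, unlike in undifferentiated ES cells. With Xist RNA high in the female ICMs, it calls X inactivation in all or most of these ICM cells possible. Only clone names identify the spots, and none of these (0 of 15247) matched the table of mouse genes used here. X-linked clones are therefore not set apart from autosomal ones, no gene is named, and the ICM label could not be checked against marker genes, for which a ratio without levels would also not serve. Ratios were read as female over male, which is likely from the study's definition of the M value. If the values ran the other way on all 5 arrays, higher and lower would change places on all of them alike. If they did so in ICM or at D0 only, the differences between ICM and D0 would change as well. Neither case could be checked here.

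The ICM arrays had values for 12382 (X) and 12158 (Y) clones, against 5660 (B), 10624 (C) and 8640 (D) on the D0 arrays. Values on all 5 arrays were present for 4743 clones (31.1% of those listed), and the comparisons below use these clones unless another set is given. Each array was centred by taking away its own median over all clones. After this the 4743 shared clones had medians of -0.12 (X) and -0.06 (Y) in ICM, and of 0.02 (B), 0.02 (C) and -0.06 (D) at D0. The labels mention that abnormal spots were removed by hand for X, Y and D, and not for B and C. How bright a spot was is not used here, and the error of a clone is judged by how far the arrays of a group differ.

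Female:male ratios in ICM were spread far more widely than at D0. The median absolute deviation of the clones, multiplied by the constant that turns it into an SD under a normal distribution, was 1.39 on X and 1.05 on Y. On the D0 arrays it was 0.513 (B), 0.483 (C) and 0.459 (D). Both ICM arrays lay above all 3 D0 arrays, and the widest D0 array stayed below the narrower ICM array. The mean was 1.22 ± 0.24 (SD, n = 2) in ICM and 0.485 ± 0.027 (SD, n = 3) at D0, a difference of 0.735 and a ratio of 2.52. A two-sided exact permutation test over the arrays gave p = 0.1, the smallest that 10 divisions of 5 arrays allow, so this design cannot pass 0.05. On D0 array D, whose label mentions removal of spots by hand as those of X and Y do, the deviation was smaller than on B and C. Over the 3314 clones with values on all 24 arrays, it was 1.31 and 0.980 on the ICM arrays, between 0.385 and 0.730 on the 20 ES cell arrays of all days, and 0.189 and 0.213 on the 2 arrays of thymic lymphocytes, which like the ICMs came from Balb/c mice and were compared between the sexes within that strain. The lymphocytes differ from the ICMs in tissue and stage, and the source of the width in ICM was not tested.

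The width was not confined to a few clones. The share of clones with a ratio of at least 1 in size, a 2-fold difference in either direction, was 47.9% on X and 36.9% on Y, against 7.27% (B), 7.61% (C) and 4.68% (D) at D0. At a size of at least 2, a 4-fold difference, the shares were 20.3% and 12.7% in ICM and 0.527%, 0.780% and 0.337% at D0. The middle 50% of clones ran from -1.08 to 0.79 on X and from -0.76 to 0.66 on Y, against -0.32 to 0.38 on B, the widest D0 array. Ratios were large in both directions: 21.3% of clones were at or above 1 and 26.7% at or below -1 on X, and 17.5% and 19.4% on Y.

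**Figure D1:**
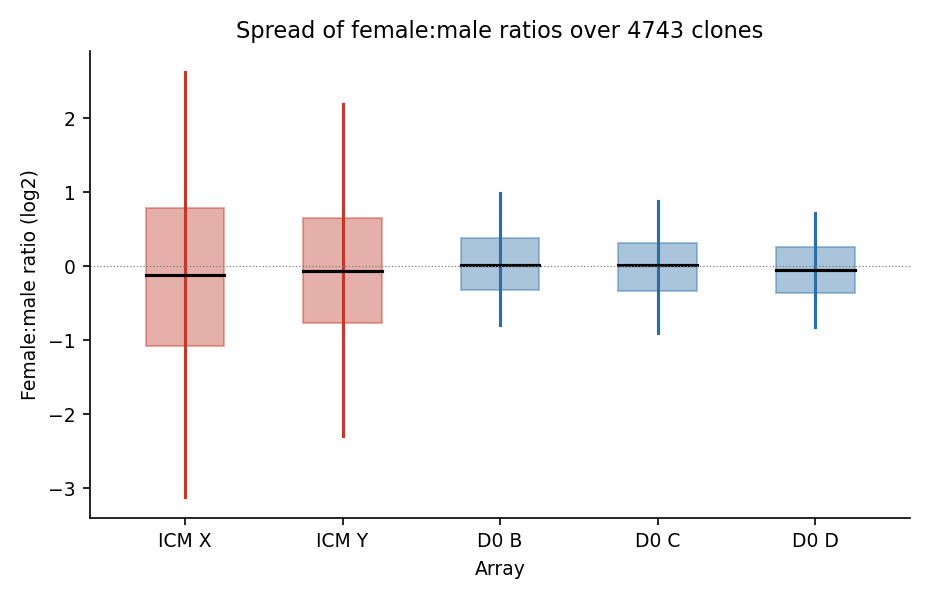
Female:male ratios (log2, y axis) of the 4743 shared clones on each array (x axis), with the ICM arrays in red and the D0 arrays in blue. Boxes span the middle 50% of clones, black lines mark medians and vertical lines run from the 5th to the 95th percentile. The boxes of X and Y are wider than those of B, C and D, while all medians lie near 0.

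The clones also varied more between arrays of the same group in ICM. The SD of a clone between arrays, as the root of the mean variance over clones, was 1.25 in ICM and 0.387 at D0. The part of the ratios that arrays of a group share was larger in ICM too. The square root of the mean covariance between arrays of a group, which noise that is independent between arrays does not raise, was 0.914 for the X and Y pair and 0.408 over the 3 D0 pairs. For X and Y this includes whatever the common male source contributes, and in both groups any effect of the dyes on a clone.

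Agreement between the 2 ICM arrays was nonetheless weaker than between D0 arrays. Across the shared clones Pearson's r was 0.36 between X and Y, against 0.56 (B and C), 0.54 (B and D) and 0.50 (C and D). X and Y had the same sign for 59.8% of clones, whereas the D0 pairs had the same sign for 63.3% to 68.9%. These values are across clones measured on the same slides, and clones are not independent replicates.

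Between ICM and D0 there was next to no agreement. The 6 pairs of an ICM and a D0 array had r between -0.06 and 0.07, with 46.3% to 53.5% of clones of the same sign. Array X was slightly below 0 with all 3 D0 arrays and array Y slightly above 0 with all 3, but over all clones that each pair had in common X was at 0.03 with C and with D. Over the group means, 2318 of 4743 clones (48.9%) had the same sign in ICM and at D0. The same held for the rest of the series: with each of the 22 other arrays, over the clones both had, r lay between -0.06 and 0.06 for X and between -0.07 and 0.10 for Y. Some of these arrays had the female sample in Cy3, N among them, with which Y had its lowest r. The r between X and Y, 0.36 over the shared clones and 0.40 over the 11515 clones both had, was above every one of these values.

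**Figure D2:**
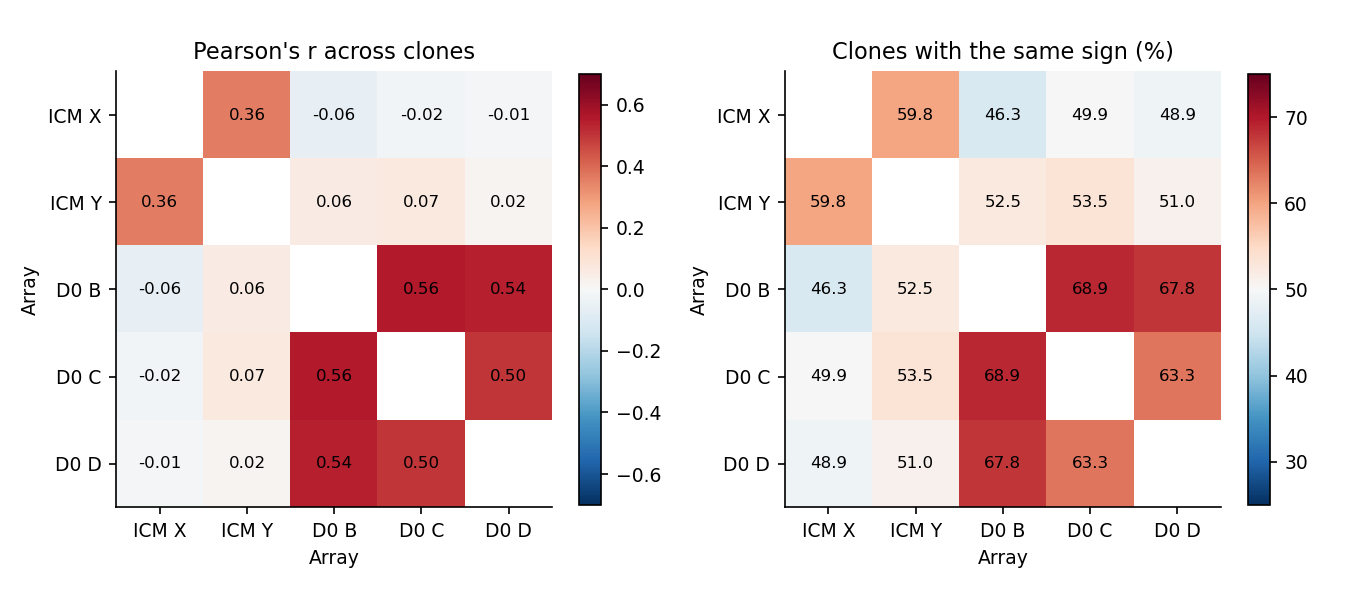
Pearson's r across the 4743 shared clones (left) and percentage of clones with the same sign (right) for each pair of the 5 arrays, with array names on both axes and colour and printed value giving the same quantity. The X and Y pair (0.36 and 59.8%) and the 3 D0 pairs stand above the 6 pairs that join an ICM to a D0 array.

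Agreement between X and Y depended on how large the ratio was. Among clones under 0.5 in size on X, 52.0% had the same sign on Y, and among those of 3 or more on X, 73.9% did. Binned on Y, the shares with the same sign on X were 53.1% under 0.5 and 79.8% at 3 or more. In the highest bin the other array had a median ratio of 1.26 (clones binned on X) or 2.13 (binned on Y) in the same direction, so the second array gave a clearly smaller value than the one used for choosing. No such increase was seen against D0. From the lowest to the highest bin on X, the share of clones with the sign of the D0 mean was between 45.0% and 49.6%, and on Y it was between 51.0% and 55.4%.

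**Figure D3:**
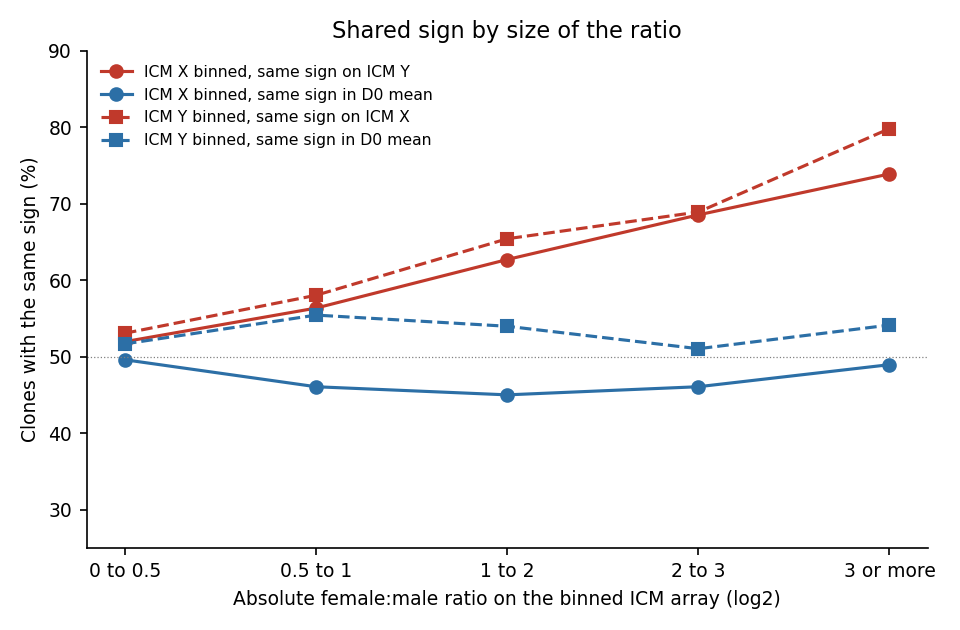
Percentage of clones with the same sign (y axis) by the absolute female:male ratio on an ICM array (log2, x axis), for the other ICM array (red) and for the D0 mean (blue). Circles with solid lines are clones binned on X, squares with dashed lines clones binned on Y. The red lines rise to 73.9% and 79.8% and the blue lines stay between 45.0% and 55.4%.

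Clones that were consistent on both ICM arrays were taken as those with the same sign and a size of at least 1 on X and on Y. There were 771 of them (16.3% of the 4743), with 366 higher in female ICM (7.72%) and 405 lower (8.54%). A further 237 clones (5.00%) reached a size of 1 on both arrays with opposite signs, so 76.5% of the clones past this limit on both arrays agreed. At a limit of 2, 224 clones agreed and 23 did not (90.7%). D0 pairs with both arrays past a limit of 1 agreed for 97.9% to 100% of clones, but held only 89 to 143 such clones. For the 6 pairs of an ICM and a D0 array the share was between 37.0% and 58.3%. The direction of the majority depended on the level taken as 0. With each array centred on the shared clones, 400 were higher and 359 lower in female ICM.

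The 771 consistent ICM clones lay around 0 at D0, with a middle 50% from -0.33 to 0.22, against -0.27 to 0.25 over all 4743 clones. The 366 clones higher in female ICM had a median ICM ratio of 2.13 and a median D0 ratio of -0.08, and the 405 clones lower in female ICM had medians of -2.04 in ICM and -0.05 at D0. Over all 4743 clones the median D0 mean was -0.02. Among the 771 clones, 199 (25.8%) had the ICM sign on all 3 D0 arrays, 207 (26.8%) the opposite sign on all 3 and 365 (47.3%) a mixture. Over all 4743 clones, by the sign of the ICM mean, these shares were 24.8%, 25.3% and 50.0%. Clones consistent in ICM thus had their sign on all 3 D0 arrays about as often as clones in general. The directions differed a little: 78 of the 366 higher in female ICM (21.3%) were also higher on all 3 D0 arrays and 114 (31.1%) lower on all 3, whereas of the 405 lower in female ICM 121 (29.9%) were lower and 93 (23.0%) higher on all 3. The D0 mean reached a size of 1 in the ICM direction for 17 of the 771 and in the opposite direction for 16, against 91 and 78 of all 4743 clones. In the other groups of the series, 44.8% to 53.1% of the consistent clones with a value had the ICM sign in the group mean. Some of these groups hold arrays with the female sample in Cy3, as both arrays of day 15 do, where the share was 44.8%.

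The clones with large ratios at D0 were set against ICM in turn. At D0, 165 clones (3.48%) had the same sign on B, C and D and a mean of at least 1 in size. Of these, 63 (38.2%) had that sign on both ICM arrays, 49 (29.7%) the opposite sign on both and 53 (32.1%) 1 array each way. Over all clones, by the sign of the D0 mean, the shares were 30.0%, 29.8% and 40.2%, so that the 165 had the D0 sign on both ICM arrays somewhat more often. Of the 107 such clones higher in female ES cells, with a median D0 mean of 1.25, the median ICM ratio was 0.01, and of the 58 lower ones, with a median of -1.19, it was -0.44. Of the 165, 16 (9.70%) also reached a size of 1 on both ICM arrays in the same direction, against 378 of all 4743 clones (7.97%). No test was made on these shares.

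**Figure D4:**
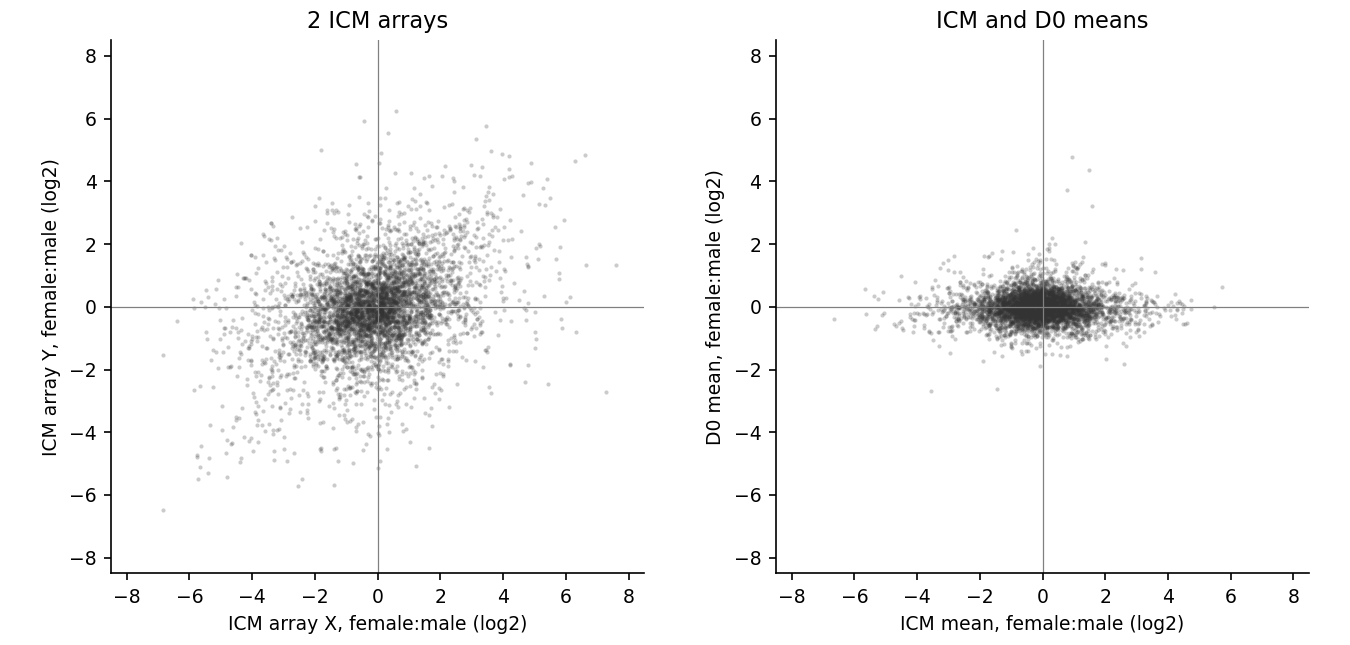
Female:male ratios (log2) of the 4743 shared clones on ICM array Y against ICM array X (left) and in the D0 mean (y axis) against the ICM mean (x axis, right), a point per clone and the same scale on all axes. The left cloud leans along the diagonal (r = 0.36). The right cloud lies flat along the ICM axis.

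The difference between ICM and D0 was tested clone by clone with limma, over the 4743 clones and with Benjamini-Hochberg adjustment. In the model with a mean per group and a common variance, 387 clones (8.16%) differed at an adjusted p under 0.05, with the ratio higher in ICM for 200 (4.22%) and lower for 187 (3.94%). At an unadjusted p under 0.05 there were 1305 (27.5%). For all 387 the ICM and D0 arrays did not overlap, which was so for 2150 of the 4743 clones (45.3%; 962 or 20.3% with ICM higher and 1188 or 25% with ICM lower). For 386 of the 387 X and Y had the same sign, against 59.8% of all 4743 clones. Both counts follow in part from the test, which calls clones whose arrays lie close together within a group. The median size of the called differences was 2.74, against a median standard error of 0.48 over all clones. The common variance does not describe these arrays, since clones varied more between ICM arrays than between D0 arrays. With a weight per group of arrays, which gave D0 arrays 10.1 times the weight of ICM arrays, 111 clones were called (2.34%), 53 higher (1.12%) and 58 lower (1.22%) in ICM, and 110 of these were among the 387. The count changed with each array left out: without D0 replicate B, C or D no clone passed the adjusted p from limma (1204, 864 and 899 at an unadjusted p under 0.05), and without ICM replicate X or Y, where a single ICM array is assumed to vary like those of D0, 1711 and 2460 clones were called. X and Y were also set against D alone, the D0 array whose label mentions removal of spots by hand. The error of that fit comes from X and Y only, so it cannot show what the removal did.

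The same model gave a female:male difference in ICM for 818 clones (17.2%), 389 higher (8.2%) and 429 lower (9.04%) in females, at an adjusted p under 0.05 (limma). At an unadjusted p under 0.05 there were 1624 (34.2%). With a weight per group the count was 89 (1.88%), 37 higher (0.78%) and 52 lower (1.1%), all among the 818. With the ICM arrays fitted alone, over the 11515 clones that both hold, no clone passed after adjustment in limma, while 1552 were below 0.05 before it. That fit was added after the data had been seen. Neither model accounts for the shared male source, and neither separates an effect of the dyes from sex, in ICM or at D0. Without ICM replicates X and Y the count was 1955 and 2589, and without D0 replicates B, C and D it was 384, 227 and 273, so it changed with each array. At D0 the common variance, raised by the ICM arrays, left 1 clone (0.0211%) at an adjusted p under 0.05 and 401 (8.45%) at an unadjusted p under 0.05. Without ICM replicate X or Y the D0 count was 558 or 550, and without D0 replicate B, C or D it was 0 (322, 138 and 177 before adjustment, limma). With a weight per group 496 clones (10.5%) differed between female and male ES cells, 250 higher (5.27%) and 246 lower (5.19%) in females, and 1330 (28%) at an unadjusted p under 0.05. Under these weights 18 clones were called both in ICM and at D0, with the same sign in 12.

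The clones with the largest called differences had ICM ratios far outside the range of D0. Clone H3093b11 had a female:male ratio of 6.30 on X and 4.66 on Y, and of -0.11, -0.05 and 0.12 on B, C and D. Both ICM arrays were high and the D0 arrays lay around 0, a difference of 5.49 with a standard error of 0.55 (adjusted p = 0.0080, limma). Clone H3090h12 had ratios of 3.45 and 5.78 in ICM and of -0.41, -0.09 and -1.02 at D0, a difference of 5.12 with a standard error of 0.74 (adjusted p = 0.0174, limma). Its ICM arrays differed from each other more than those of H3093b11, and all 3 D0 arrays were below 0.

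In the other direction, clone H3093c01 had ratios of -6.83 and -6.48 in ICM and of -0.21, -0.08 and -0.88 at D0. The ICM arrays were close together and far below D0, by -6.27 with a standard error of 0.41 (adjusted p = 0.0080, limma). Clone H3029c03 had ratios of -5.66 and -5.12 in ICM and of 0.52, 0.53 and 0.02 at D0, a difference of -5.74 with a standard error of 0.39 (adjusted p = 0.0080, limma). With a weight per group the adjusted p from limma was 0.0277 for H3090h12 and 0.0176 for each of the other clones named here, and over all alternatives it ran from 9.78e-09 to 0.997. Without D0 replicate B, C or D it was above 0.05 for each, between 0.0774 and 0.108.

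The 4 clones stayed closer to 0 on the remaining arrays of the series. H3093b11 ran from -0.44 to 0.69 on the 18 other arrays that had a value, with 9 above and 9 below 0, and H3090h12 from -1.30 to 1.32 on 19. H3090h12 was above 0 on 10 of these 19 and below 0 on 9. H3093c01 ran from -0.996 to 0.56 on 19 arrays, with 8 above and 11 below 0. H3029c03 ran from -1.66 to 0.57 on 16, with a median of -0.51, and was below 0 on 13 of them, the direction it had in ICM. Whether these clones are X-linked or Y-linked is not known here.

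**Figure D5:**
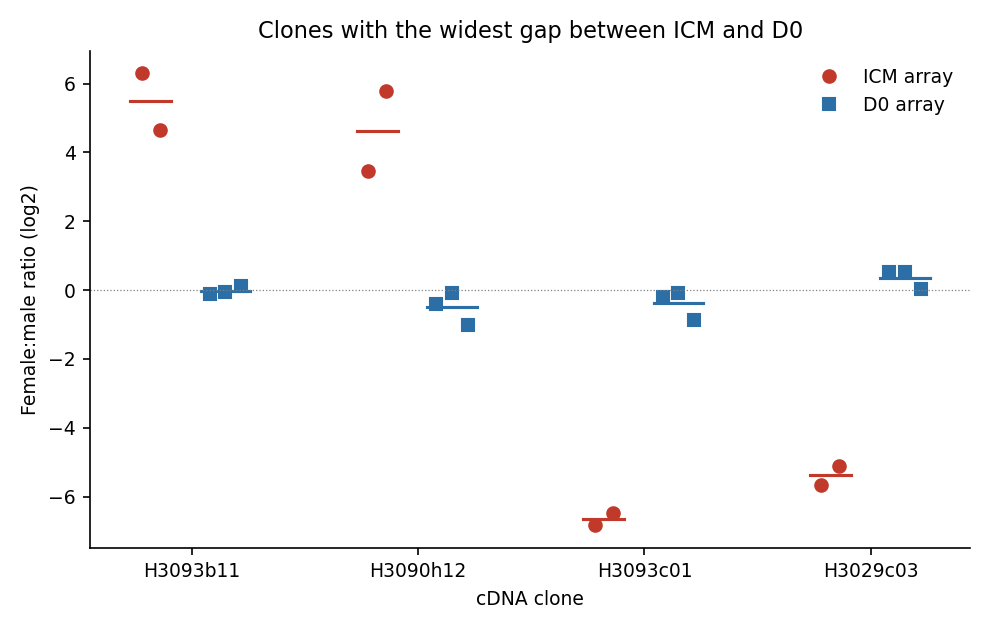
Female:male ratios (log2, y axis) of the 4 named clones (x axis) on the 2 ICM arrays (red circles) and the 3 D0 arrays (blue squares), with a line at the mean of each group. The ICM arrays lie at 3.45 to 6.30 or at -6.83 to -5.12, and the D0 arrays between -1.02 and 0.53.

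ICM arrays gave values for many clones that the D0 arrays did not. Both X and Y had a value for 11515 clones (75.5%), of which 1345 had none on B, C or D. Among these 1345 the X and Y ratios had r = 0.38 and 60.9% of the same sign, with a spread of 1.04 on X and 0.833 on Y. Clones with a value on 1 D0 array (1943) had r = 0.48 and 66.4%, those with a value on 2 (3484) had r = 0.41 and 62.8%, and the 4743 on all 3 had r = 0.36 and 59.8%. The ICM ratios were widest in this last set. Over all 11515 clones, 1847 had the same sign and a size of at least 1 on both ICM arrays, 807 higher and 1040 lower in female ICM. Such clones made up 13.2% of the 1345 without a D0 value. Their share was 18.7% with a value on 1 D0 array, 15.4% on 2 and 16.3% on all 3.

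Position in the clone library moved the ratios by less than the spread between clones. The names of the clones give 159 source plates, and the median ratio of a plate ran from -0.54 to 0.56 on X and from -0.45 to 0.58 on Y, against -0.37 to 0.54 on C, the widest range at D0. Plate medians of X and Y had r = 0.48 over the 159 plates. With the median of its plate subtracted from each clone, r between X and Y was 0.36 and 58.7% of clones had the same sign, and the spreads on X and Y were 1.40 and 1.04. The 771 consistent clones came from 153 plates, with at most 15 on a plate.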

How the data were processed

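Female:male ratios of mouse cDNA clones were taken from a table of log2 values deposited by the authors, with a column per array, of which 2 ICM and 3 D0 arrays were compared here. Per the study's methods, the authors balanced the channels at scanning, excluded abnormal spots manually, read the images with GenePix 6.0 and used Gepas for normalisation. Which Gepas method was applied, how background was corrected and why a clone lacks a value is not given in the sources used here. Samples were grouped by source name, day and dye in the labels.

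Each array was centred on its median, and clones with values on all 5 arrays (4743) were kept. Group means were fitted with limma 3.58.1 in R 4.3.3 (moderated statistics, Benjamini-Hochberg adjustment over all clones tested, threshold 0.05), with ICM minus D0 as the contrast. Spreads were compared by a two-sided exact permutation test over arrays. The limma fit was first run on simulated data, to check that planted differences were estimated near their size. There ICM and D0 shared the same underlying ratios apart from the planted differences, and false calls were not held to a limit. Precision is limited by the number of arrays, and p-values concern the spread between these arrays only. Named clones are the 2 with the highest and the 2 with the lowest called ICM minus D0 differences whose arrays do not overlap between groups. The planned values for X-linked genes, gene lists and markers were not computed, since clones could not be paired with genes. Alternatives were the centring, a common spread, the filters, source plates, the D0 arrays used, each array left out, ICM arrays averaged, weights, robust moderation (statmod 1.5.0) and all 24 arrays in the fit. The fit of each group alone was added after seeing the data. The arrays, lists and tests were chosen with earlier results of these data known.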

Additional observations from a re-analysis of the deposited data

Results flagged for a closer look

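By the limma contrast of the group means with a common variance, 387 clones (8.16%) were called as different between ICM and D0. That variance does not describe these arrays, and no clone was called without D0 replicate B, C or D. Among the 387, the named clones differed between the groups by 5.49 (H3093b11), 5.12 (H3090h12), -6.27 (H3093c01) and -5.74 (H3029c03) on the log2 scale. With a weight per group 111 clones were called. ICM and D0 differ in strain, amplification and sample size as well as in cell type, and the parts of these were not tested. Groups of 2 and 3 arrays are too small for a check of single arrays that stand apart. With replicate A included, such a check of the 4 D0 arrays, by number of values and by spread, flagged none.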

How the results depend on the processing

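The wider spread in ICM kept its direction under all 14 alternatives, with differences of 0.571 to 0.989 and an exact permutation p never under 0.0667. That p came with replicate A added to D0 and is the smallest those arrays allow. Values as deposited and the other centring only shift an array, so they cannot change the spread. The counts of clones depended on the settings. The D0 array with removal by hand is D, whose label mentions it, while those of B and C do not. The cause was not tested where none is given. For ICM minus D0 (387) the count was 232 with arrays scaled to a common spread, 206 with at least 1 value in each group, 861 with replicate A added to D0, 0 with the D0 array with removal by hand alone (367 at an unadjusted p under 0.05 from limma), 1673 with the ICM arrays averaged to 1 sample, 114 with array weights, 111 with a weight per group and 1591 with all 24 arrays in the fit, and it ran from 0 to 2460 with an array left out. In the same order of settings where they changed it by over 1.5 times, the count for ICM (818) was 247 with scaling, 0 with that D0 array alone (1038 at an unadjusted p under 0.05 from limma), 1832 with averaging, 91 with array weights, 89 with a weight per group and 1999 with all arrays, and 0 with the ICM arrays alone (1552 at an unadjusted p under 0.05 from limma, 11515 clones), and it ran from 227 to 2589 with an array left out. For D0 (1) it was 281 with scaling, 0 with at least 1 value in each group (724 at an unadjusted p under 0.05 from limma), 0 with plate medians subtracted (396), 56 with replicate A, 0 with that D0 array alone (12), 560 with averaging, 508 with array weights, 496 with a weight per group, 205 with all arrays and 558 with the D0 arrays alone, and it ran from 0 to 558 with an array left out. Averaging, or leaving out an ICM array, takes the spread from D0 alone, and fewer arrays leave fewer degrees of freedom. With D as the only D0 array the spread comes from X and Y. The share of clones with the same sign in ICM and D0 (48.9%) was 52.1% with at least 1 value in each group and 51.8% with that D0 array alone, and ran from 47.0% to 53.2% with an array left out. The number of clones consistent on both ICM arrays was 771 of 4743. It was 1492 at a limit of 0.5, 224 at a limit of 2 and 397 with scaling. This count uses only X and Y, so the D0 arrays and the filters change only which clones are counted. It was 1669 of 10170 with at least 1 value in each group and 1250 of 8160 with that D0 array alone. With a D0 array left out it was 1161 of 7546 (B), 806 of 4951 (C) and 881 of 5216 (D). It could not be recomputed without an ICM array. The named clones kept their direction under every alternative tried, which follows in part from how they were chosen. Their arrays do not overlap between the groups, so leaving out an array could not reverse them. The weight per group, averaging, robust moderation and the fit of all 24 arrays leave the difference of a clone as it is. No paired analysis was possible because the arrays carry letters and no numbers shared between the groups. With 2 ICM arrays and a shared male source, a difference in a single clone is measured on few independent embryos.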
